A study of Danio rerio with 4 samples.

Results

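The MHC and proteasome genes are the 59 genes, of 25432 in the count tables, whose symbol starts with mhc, psma, psmb, psme, cd74 or b2m, or is tap1, tap2a or tapbp.1. The rule uses symbols and no measured value, although it was written with earlier results of these data known. The genes were followed in GFP+ cells sorted from zebrafish embryos at 3 dpf, in which the kdrl promoter drives EGFP. There were 2 libraries from flt1-/- embryos (flt1ka604; Tg(kdrl:EGFP)zf531Tg) and 2 from WT embryos (Tg(kdrl:EGFP)zf531Tg), made with a droplet-based 10x Genomics protocol that counts unique molecular identifiers (UMIs) at the 3′ end of transcripts. All 4 libraries carry the EGFP transgene, each was made from pooled embryos, and the sources used here do not say whether the pools came from separate clutches. The p-values of genotype comparisons within a class therefore measure only the spread between libraries, which may be partly technical. Tests with library as a block instead measure the spread of the difference between classes over the libraries.

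The proteasome is the protease that degrades ubiquitin-tagged proteins. Its 20S core has outer rings of alpha subunits (psma genes) and inner rings of beta subunits (psmb genes), of which psmb5, psmb6 and psmb7 encode the catalytic ones. In mammals, interferon-responsive and lymphoid cells replace these with the inducible subunits encoded by PSMB8, PSMB9 and PSMB10, which makes the immunoproteasome, and add the PA28 activator encoded by PSME1 and PSME2. Peptides from the core are carried into the endoplasmic reticulum by the TAP transporter, loaded on MHC class I chains with the help of tapasin (tapbp.1) and β2-microglobulin (b2m), and shown at the cell surface. MHC class II molecules instead present peptides from endosomes, guarded on the way by the invariant chain, Cd74. In zebrafish, the U lineage of class I chains is the classical one and lies in a cluster of genes with tapasin, tap2a and several inducible beta subunits. This cluster is polymorphic, and haplotypes differ in the genes they hold.

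The 4 libraries held 16828951 to 33837917 UMIs in called cells, and 5191 cells passed the filters on genes and mitochondrial UMIs. Clusters were named from marker lists that hold no member, and members were left out of the genes used to cluster. White blood-like cells numbered 2399 (median 21431 UMIs), erythrocyte-like cells 182 (18911.5 UMIs), epithelial-like cells 717 (11716 UMIs) and endothelial-like cells 1245 (7625 UMIs). The white blood-like class joins lymphoid-, blood progenitor-, granulocyte- and thrombocyte-like clusters. Its dividing progenitor-like cluster 2 (393 cells) was named from 6 blood progenitor markers. It also met the marker criteria for 4 erythrocyte markers and for 0 pan-leukocyte markers. All 16 pan-endothelial markers were detected in endothelial-like cells, with a summed level of 6684 to 8216 CPM (UMIs per 1000000 UMIs of a library's cells of that class), against 81 to 155 CPM in white blood-like cells. The transgene's host gene kdrl was at 804 to 1250 CPM in endothelial-like cells and at 2.84 to 4.19 CPM in white blood-like cells, and 1245 of the 5191 kept cells were endothelial-like. The mutated gene flt1 was at 246 and 204 CPM in endothelial-like cells of flt1-/- embryos, against 297 and 167 CPM in those of WT embryos. The 3′ tag does not read the mutated part of the transcript, so these values do not check the genotype. Only 8 cell barcodes were shared between libraries, summed over all pairs. No cluster took the name macrophage-like, and doublets were not removed.

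Members made up 0.334% of the UMIs of the kept cells (264931 UMIs), and their abundance was very uneven. At least 100 UMIs were counted for 34 members, 10 to 99 for 11, and 1 to 9 for 8. The 6 members without a UMI were psmb11a, the beta subunit gene related to that of the thymus proteasome in mammals, the class I chains mhc1lba, mhc1lfa, mhc1lla and mhc1uma, and the class II chain mhc2dbb. The 15 constitutive core genes, meaning psmb1 to psmb7 and the psma genes without psma6l, supplied most of the UMIs: their summed level was 2749 to 3238 CPM in white blood-like cells and 2177 to 2758 CPM in endothelial-like cells. Genes of the Z lineage dominated the class I chains. mhc1zba had 9238 UMIs, mhc1zea 1327 and mhc1laa of the L lineage 118, while mhc1uba, the most abundant U lineage chain, had 77.

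White blood-like cells were compared with endothelial-like cells of the same libraries to ask how the members differ between the main cell classes. UMIs were summed per library and class and tested with edgeR's quasi-likelihood F-test, with library as a block and p-values adjusted over all genes tested (Benjamini-Hochberg, threshold 0.05). The filter on low counts passed 30 of the 59 members, of which 25 were higher in white blood-like cells and 0 lower. Across all 11633 genes tested, 36.4% were higher and 33.6% lower (70.0% in either direction). The median log2 fold change was 0.92 over the 30 members and 0.10 over all genes tested. At an unadjusted p under 0.05, 26 members and 8450 of all genes passed in either direction. DESeq2 also called 0 members lower, and it called 7701 genes in either direction. The filter drops genes that are low in most sums, so the 29 other members are described mainly by their levels. A gene can pass it through the class in which it is high. psme1, psme2, tapbp.1, psma6l and cd74b were too low in some or all endothelial-like sums and passed through the white blood-like ones. The direction of such members was tied to the filter, so their p-values are no independent support for it.

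The choice of scaling moves these fold changes. With total counts in place of TMM factors, an alternative chosen after seeing the data, the median of all genes shifted by -0.46 on the log2 scale, 16 members were higher and 3 were lower, against 24.6% and 44.0% of all genes. All 16 were among the 25. The CPM values given below are scaled to total counts, whereas fold changes are TMM-scaled unless stated.

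**Figure D1:**
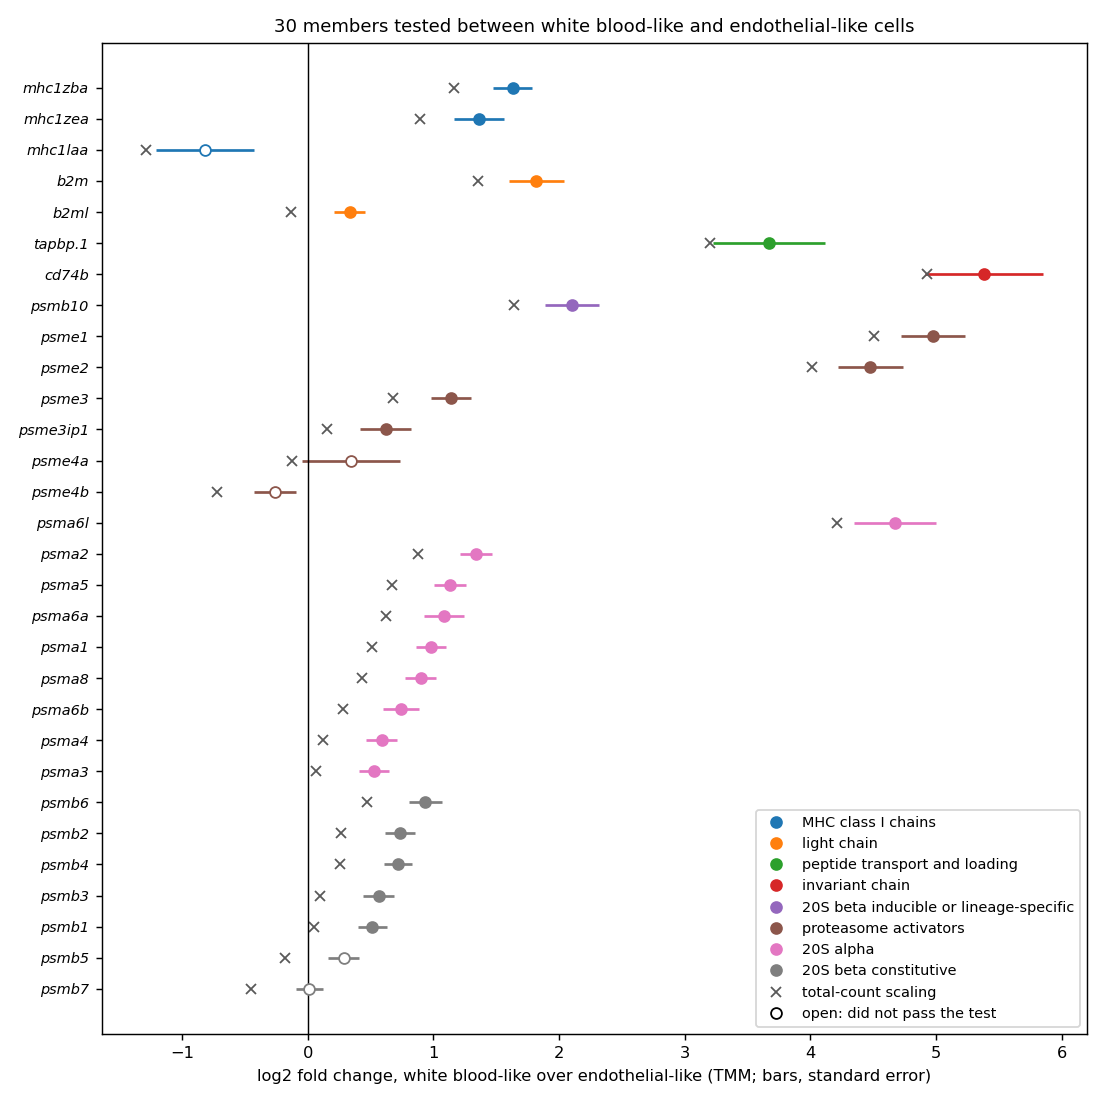
The log2 fold change of white blood-like over endothelial-like cells for the 30 members tested, by group, with standard errors (TMM scaling, 4 libraries) and the value with total-count scaling as crosses. The PA28 genes psme1 and psme2, cd74b, psma6l and tapbp.1 lie above 3 with either scaling, while the constitutive subunits lie between 0.01 and 1.34 with TMM scaling and between -0.45 and 0.87 with total-count scaling.

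Among the proteasome genes tested, psme1, psma6l and psme2 differed most. psme1, which encodes PA28α, was at 47.7 and 50.4 CPM in white blood-like cells of flt1-/- embryos and at 36.4 and 50.6 CPM in those of WT embryos. In endothelial-like cells it was at 2.74 and 1.52 CPM in flt1-/- and at 0.662 and 2.73 CPM in WT. No endothelial-like value came near the white blood-like ones, and the log2 fold change was 4.98 ± 0.25 (SE; edgeR adjusted p = 9.38e-08). Its partner psme2 (PA28β) was at 33.3 to 43.1 CPM in white blood-like cells and at 0.662 to 3.03 CPM in endothelial-like cells, a log2 fold change of 4.48 ± 0.26 (SE; edgeR adjusted p = 2.28e-07).

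The other activators did not share this pattern. psme3, whose product PA28γ is nuclear, averaged 63.5 ± 9.11 CPM in white blood-like and 39.5 ± 3.97 CPM in endothelial-like cells (SD, n = 4 libraries each; log2 fold change 1.14, edgeR adjusted p = 0.000126). psme4b, which encodes the PA200 activator, averaged 25.4 ± 2.06 and 42.4 ± 5.77 CPM in white blood-like and endothelial-like cells (SD, n = 4 each), but did not pass the test with TMM scaling (log2 fold change -0.26, edgeR adjusted p = 0.20) and was lower with total counts (-0.72, adjusted p = 0.0028). Its paralog psme4a did not pass (0.35, adjusted p = 0.45). Within each library, psme1 and psme2 supplied 47.7 ± 2.18% of the UMIs of the 5 activator genes in white blood-like cells and 4.54 ± 2.26% in endothelial-like cells (SD, n = 4 each). This share does not depend on the scaling. psme3ip1, which the symbol rule takes in, encodes a protein that binds PA28γ and is no proteasome subunit. It was at 12 ± 1.2 and 10.8 ± 2.36 CPM in white blood-like and endothelial-like cells (SD, n = 4 each), and was called higher with TMM scaling (0.62, adjusted p = 0.020) but not with total counts (0.16, adjusted p = 0.53).

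Among the core subunits, psma6l stood apart. This gene is a relative of psma6a and psma6b, which encode the same alpha subunit, and it was at 17.8 to 21.8 CPM in white blood-like cells and at 0.379 to 1.37 CPM in endothelial-like cells. The log2 fold change was 4.68 ± 0.33 (SE; edgeR adjusted p = 7.68e-07), against 1.09 for psma6a and 0.74 for psma6b. psma6l made up 10.5 ± 1.71% of the UMIs of the 3 psma6 genes in white blood-like cells and 0.872 ± 0.408% in endothelial-like cells (SD, n = 4 each). Reads of these paralogs could be split in counting, so their shares are uncertain.

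psmb10, the inducible counterpart of psmb7, was at 20.7 to 32.0 CPM in white blood-like cells and at 5.13 to 11.3 CPM in endothelial-like cells (log2 fold change 2.1 ± 0.21 (SE), edgeR adjusted p = 1.19e-05). Its share of the psmb10 and psmb7 UMIs was 8.77 ± 1.45% in white blood-like and 2.29 ± 0.922% in endothelial-like cells (SD, n = 4 each). psmb7 itself averaged 259 ± 24.9 CPM in white blood-like and 353 ± 31 CPM in endothelial-like cells (SD, n = 4 each). It had a log2 fold change of 0.01 with TMM scaling (adjusted p = 0.91), and was lower with total counts (-0.45, adjusted p = 0.0039). The inducible psmb8a (381 UMIs in all kept cells), psmb12 (129), psmb9a (31) and psmb13a (20) did not pass the filter. psmb8a had 371 UMIs in white blood-like and 1 in endothelial-like cells. Without the filter, the edgeR test called psmb8a (adjusted p = 2.24e-19) and psmb12 (2.38e-07) higher in white blood-like cells. psmb11b, a relative of the thymus subunit gene, had 5 UMIs.

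**Figure D2:**
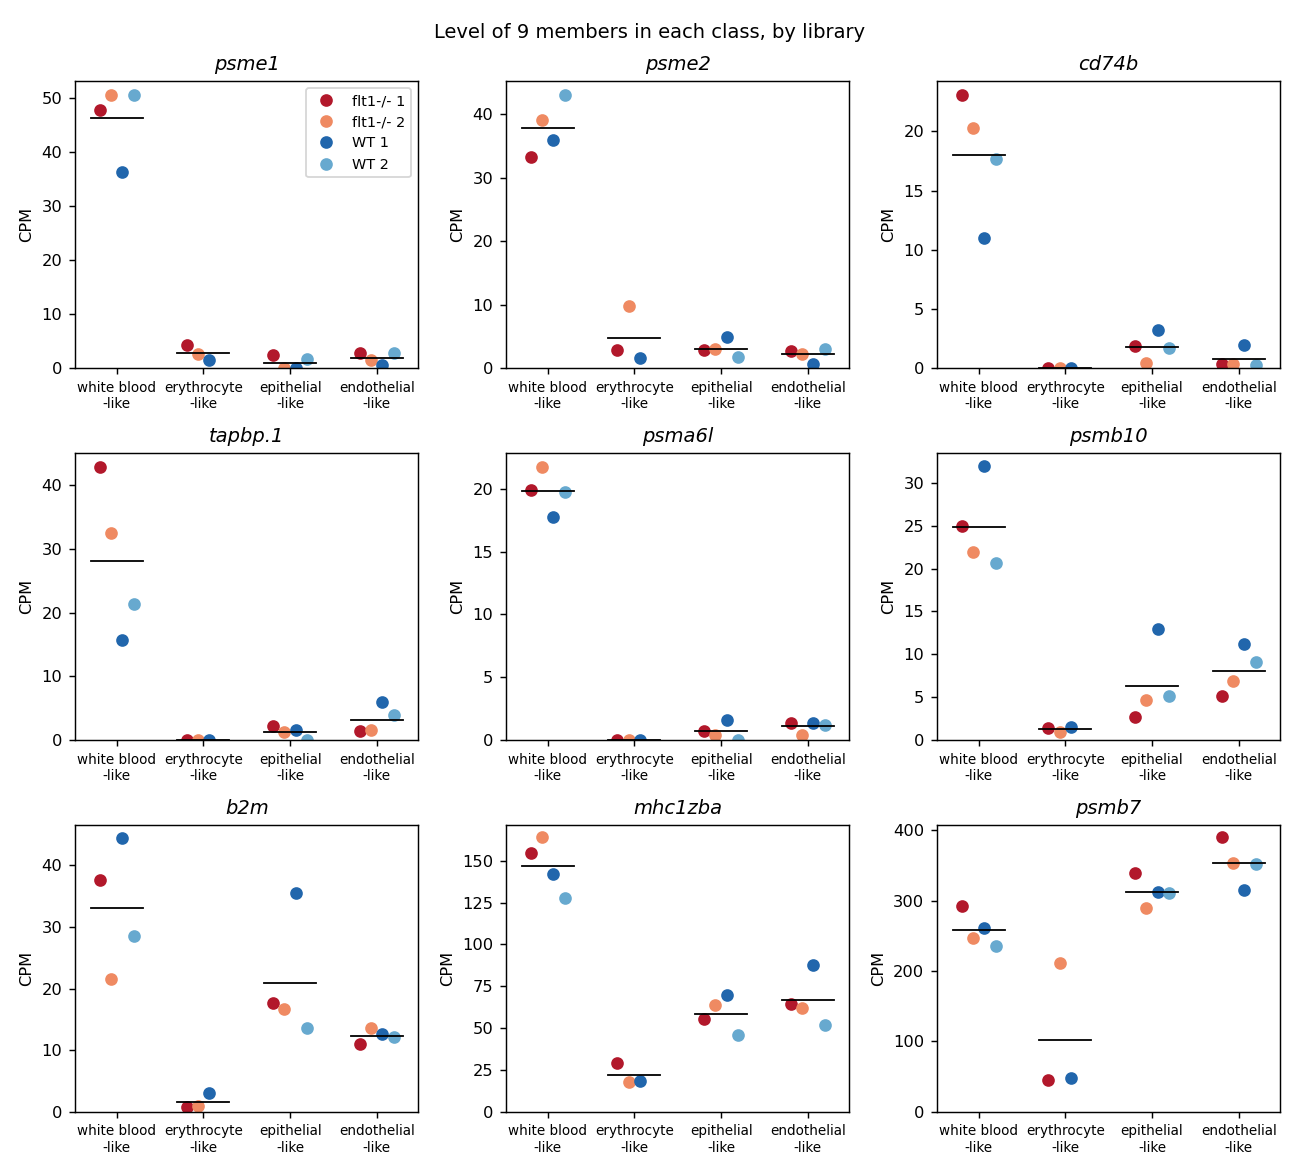
The level of 9 members in CPM (linear axes from 0) in white blood-like, erythrocyte-like, epithelial-like and endothelial-like cells, 1 point per library and a line at the mean. The CPM of psme1, psme2, cd74b, tapbp.1 and psma6l are low outside white blood-like cells in every library shown, and those of b2m and psmb10 differ less. The mean CPM of psmb7 is highest in endothelial-like cells, but its difference from white blood-like cells depends on the scaling. In erythrocyte-like cells globins and other erythrocyte markers take most UMIs, which lowers the CPM of other genes, psme1 and psme2 among them.

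The class I chains and their partners differed by smaller factors than PA28. mhc1zba was at 155 and 164 CPM in white blood-like cells of flt1-/- and at 142 and 128 CPM in those of WT, against 64.7 and 62.2 CPM and 87.4 and 52.1 CPM in endothelial-like cells of flt1-/- and WT. The groups of libraries did not overlap (log2 fold change 1.63 ± 0.15 (SE), edgeR adjusted p = 6.69e-06). mhc1zea, which lies close to it with mhc1zca in between in the GRCz12tu assembly, was at 18.5 to 24.5 CPM in white blood-like and 6.5 to 15.2 CPM in endothelial-like cells (1.36 ± 0.20 (SE), adjusted p = 0.000155). Z lineage chains resemble each other, and reads could be split between them. mhc1laa went the other way, with 1.09 to 2.01 CPM in white blood-like cells and 1.71 to 4.85 CPM in endothelial-like cells, but it did not pass the test (-0.82 ± 0.39 (SE), adjusted p = 0.085) except with total counts (-1.28, adjusted p = 0.017). The endothelial-like sums alone carried it past the filter on low counts. Its lower direction was therefore tied to the filter, and its p-values are no independent support for it.

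Of the β2-microglobulin genes, b2m was at 37.6 and 21.5 CPM in white blood-like cells of flt1-/- and 44.4 and 28.6 CPM in those of WT, against 10.9 to 13.7 CPM in endothelial-like cells (1.82 ± 0.22 (SE), edgeR adjusted p = 3.84e-05). The more abundant b2ml averaged 141 ± 18.2 CPM in white blood-like and 154 ± 4.66 CPM in endothelial-like cells (SD, n = 4 each). Its TMM log2 fold change was 0.33 (adjusted p = 0.038), it turned to -0.13 with total counts (adjusted p = 0.36), and it missed the threshold when any 1 library was left out (adjusted p = 0.0528 to 0.147). A direction for b2ml therefore cannot be given.

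tapbp.1, the tapasin gene, was at 42.9 and 32.5 CPM in white blood-like cells of flt1-/- and 15.8 and 21.3 CPM in those of WT, against 1.37 and 1.52 CPM and 5.96 and 3.94 CPM in endothelial-like cells of flt1-/- and WT. All 4 libraries were higher in white blood-like cells (3.67 ± 0.45 (SE), edgeR adjusted p = 4.31e-05). The transporter genes were far less abundant, with 101 UMIs of tap1 and 28 of tap2a in all kept cells. In white blood-like cells tap1 had 29 and 24 UMIs in flt1-/- and 8 and 31 in WT, and it passed the test only without the filter (log2 fold change 2.07, adjusted p = 0.0025).

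The invariant chain gene cd74b had the largest fold change of the members tested. It was at 23.1 and 20.3 CPM in white blood-like cells of flt1-/- and 11 and 17.7 CPM in those of WT. In endothelial-like cells it was at 0.342 and 0.379 CPM in flt1-/- and at 1.99 and 0.303 CPM in WT, so the groups were far apart (5.38 ± 0.47 (SE), edgeR adjusted p = 3.81e-06). cd74a had 93 UMIs in 50 cells. The class II chains that Cd74 accompanies were nearly missing, with 60 UMIs over the 5 mhc2 genes in 5191 cells. The 25 UMIs of mhc2a came from 9 cells, 7 of them in flt1-/- replicate 1. Of these 9 cells, 8 were white blood-like and 7 also held cd74b, which was detected in 377 cells.

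Shares of cells followed the same order, though classes differed in depth. psme1 was detected in 44.2% of white blood-like cells (95% exact binomial interval 42.2 to 46.2%), 5.49% of erythrocyte-like (2.67 to 9.87%), 1.67% of epithelial-like (0.868 to 2.91%) and 1.61% of endothelial-like cells (0.984 to 2.47%). After thinning each cell to 1000 UMIs, which left out 33 white blood-like and 59 endothelial-like cells, the shares were 4.65% and 0.253% in white blood-like and endothelial-like cells. At the same depth psmb7 was detected in 23.0% of white blood-like and 28.7% of endothelial-like cells. cd74b and tapbp.1 were detected in none of 182 erythrocyte-like cells, which allows a share of cells with a UMI of up to 2.01% (exact binomial bound) and does not limit the share that expresses them. The intervals cover counting error only. The 9 pan-leukocyte markers, all detected in endothelial-like cells, summed to 1907 to 2472 CPM in white blood-like and 213 to 353 CPM in endothelial-like cells. The part of leukocyte RNA or doublets in the low endothelial-like values was not tested.

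The constitutive core showed modest differences. With TMM scaling, 13 of 15 genes were higher in white blood-like cells, with log2 fold changes of 0.01 to 1.34 and a median of 0.73. With total counts 6 were higher and 1 lower, with a median of 0.27. psma2 had the largest change (140 ± 18 CPM in white blood-like and 76.6 ± 12.2 CPM in endothelial-like cells, SD, n = 4 each; log2 fold change 1.34, edgeR adjusted p = 6.7e-06) and was higher with both scalings. psma5, psma6a, psma1, psma8 and psmb6 were likewise higher with both. psma3, at 218 ± 15.4 and 209 ± 26.9 CPM in white blood-like and endothelial-like cells, was called higher with TMM scaling only (0.53, adjusted p = 0.0025). psmb5, the catalytic subunit gene, did not pass (0.29, adjusted p = 0.064).

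The rest of the pathway was read from lists of genes that are no members. Of all genes tested between white blood-like and endothelial-like cells, 36.4% were higher and 33.6% lower with TMM scaling. With total counts these shares were 24.6% and 44.0%. Of the 27 genes of the 19S regulatory particle, the cap that recognises ubiquitin, 13 were higher and 0 lower with TMM scaling, and 3 higher and 4 lower with total counts. Of 5 genes for assembly and inhibition of the core, 4 were higher, among them psmg2 (log2 fold change 1.02) and pomp (0.56), and 2 of 5 were higher with total counts. Of 7 partners of loading in the endoplasmic reticulum that were tested, 2 were higher and 3 lower, the 3 being the calreticulin genes calr (-0.51), calr3a (-0.53) and calr3b (-0.41). With total counts 0 were higher and 4 lower. Among 13 partners of the class II pathway, 4 were higher and 5 lower (2 and 6 with total counts). The cathepsin S genes ctss2.1 (5.10) and ctss2.2 (6.03) were higher and cathepsin L gene ctsla was lower (-5.11). Among 10 interferon and class I regulators, 3 were higher and 6 lower (1 and 6 with total counts). stat1a, which carries interferon signals, averaged 97.8 CPM in white blood-like and 353 CPM in endothelial-like cells (-1.40), and irf9 averaged 1.36 CPM in white blood-like and 63.7 CPM in endothelial-like cells (-5.05). jak2a (1.33), irf1b (1.14) and stat2 (0.49) were the 3 that were higher.

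Within the white blood-like class the immune members varied between clusters, as described without a test. The summed level of psme1 and psme2 was 129 CPM in the progenitor-like cluster 5 and 112 and 92.2 CPM in the lymphoid-like clusters 0 and 6. It was 64.1 CPM in thrombocyte-like cluster 10, 40.0 CPM in granulocyte-like cluster 15 and 18.8 CPM in the dividing progenitor-like cluster 2, against 2.9 to 4.5 CPM in the 3 endothelial-like clusters. The invariant chain followed another order. cd74a and cd74b together were at 36.1 and 25.1 CPM in the lymphoid-like clusters 0 and 6 and at 15.7 CPM in cluster 5, but at 0.6 to 3.9 CPM in the other white blood-like clusters. Class I chains were highest in thrombocyte-like cluster 10, with mhc1zba at 282 ± 81.1 CPM there and 205 ± 16.3 CPM in cluster 0 (SD, n = 4 each). The inducible beta genes psmb8a, psmb9a, psmb10, psmb12 and psmb13a together reached 62.3 CPM in cluster 5 and 32.0 CPM in cluster 0. The constitutive core varied far less, from 2453 CPM in cluster 15 to 3584 CPM in the dividing thrombocyte-like cluster 16.

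Among endothelial-like clusters, mhc1zba was at 62.1 ± 13.6 CPM in cluster 1, 85.7 ± 21.3 CPM in the endocardial-like cluster 4 and 34.2 ± 7.7 CPM in the lymphatic-like cluster 9 (SD, n = 4 each). No library of cluster 9 reached the lowest value of cluster 4. b2m was at 20.2 ± 6.6 CPM in cluster 1, 5.8 ± 4.1 CPM in cluster 4 and 5.7 ± 5.1 CPM in cluster 9 (SD, n = 4 each). psmb7 was at 360 ± 43.8, 311 ± 9.7 and 407 ± 58.6 CPM in these 3 clusters (SD, n = 4 each).

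**Figure D3:**
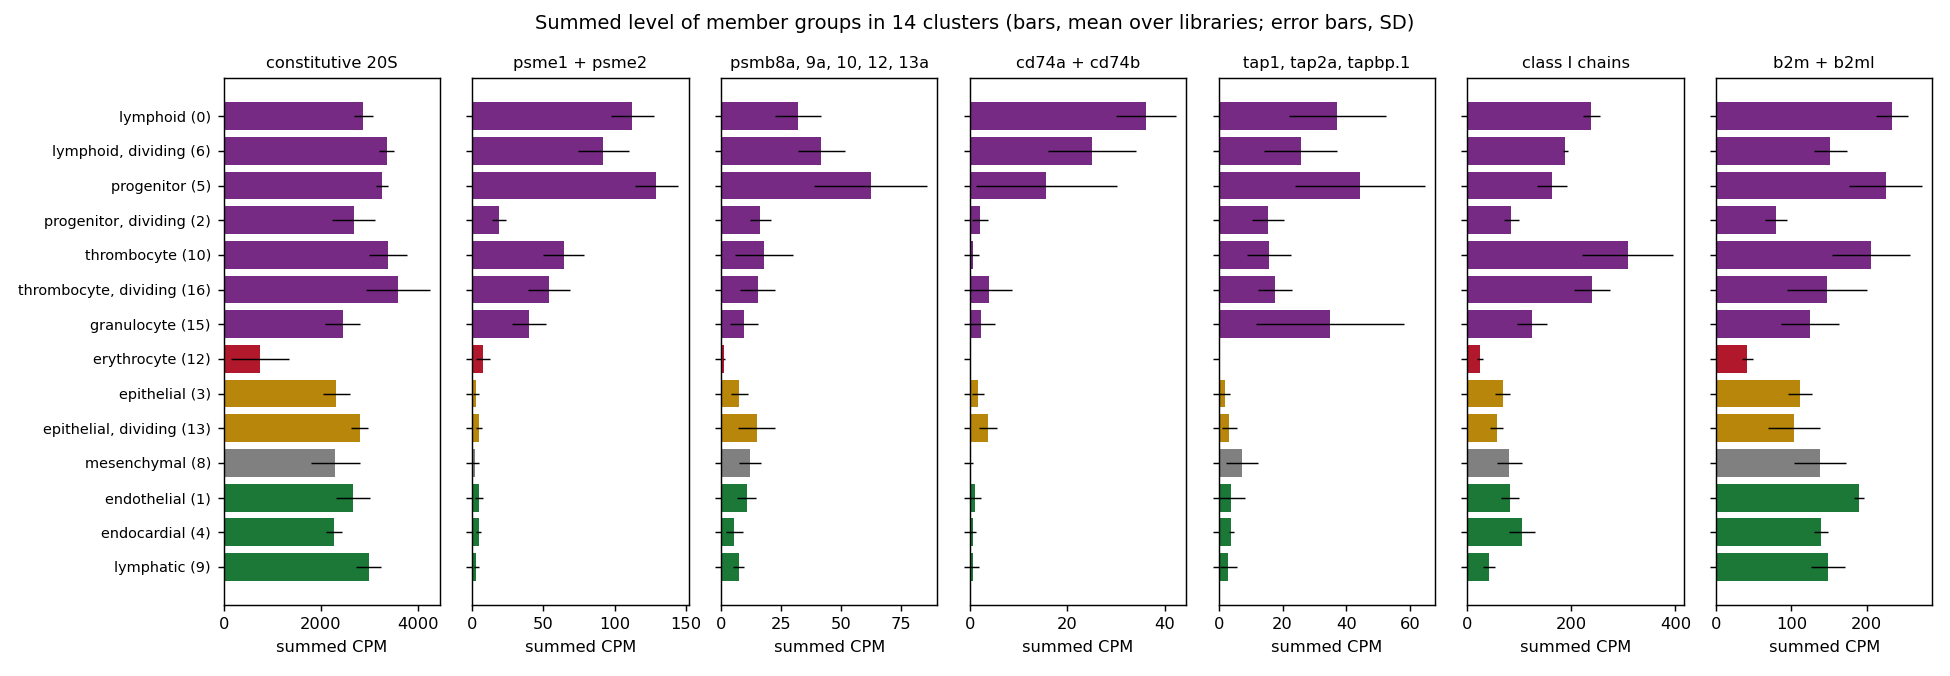
Summed CPM of 7 groups of members in 14 named clusters (mean; error bars, SD over libraries; linear axes from 0; white blood-like purple, erythrocyte-like red, epithelial-like ochre, mesenchymal-like grey, endothelial-like green). PA28 genes reach 129 CPM in progenitor-like cluster 5, and cd74 genes peak at 36.1 CPM in lymphoid-like cluster 0. Outside white blood-like clusters PA28 genes stay at or under 7.6 CPM. In erythrocyte-like cells they still supply 35.7% of the UMIs of the 5 activator genes. The constitutive core is low in erythrocyte-like cells only. The CPM of erythrocyte-like cells are lowered by the globins in their total.

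Erythrocyte-like cells were compared with endothelial-like cells in 3 libraries, since WT replicate 2 held under 10 such cells. The erythrocyte marker list, which holds globins, took 77.7% and 63.8% of the UMIs of erythrocyte-like cells in flt1-/- and 73.2% in WT replicate 1. The constitutive core was at 394 and 1437 CPM in erythrocyte-like cells of flt1-/- and 418 CPM in those of WT replicate 1, against 2758 and 2696 CPM and 2177 CPM in endothelial-like cells of the same libraries. With the UMIs of the marker list left out of the total, it was at 1770 and 3973 CPM in erythrocyte-like cells of flt1-/- and 1562 CPM in those of WT replicate 1, against 2760 and 2697 CPM and 2179 CPM in endothelial-like cells, so the erythrocyte-like values lie on both sides.

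The direction of the test therefore depended on the scaling. With TMM, 4 of 21 members tested were higher and 0 lower (18.0% and 33.2% of the 7160 genes tested). An unadjusted p under 0.05 was found for 5 members, against 4044 of all genes. DESeq2 called 2 members higher and 0 lower, against 3219 of all genes in either direction. With total counts in edgeR 0 members were higher and 18 lower (3.46% and 84.9% of all genes), and the median of all genes shifted by -2.47 on the log2 scale. The 4 members were psme3ip1 (log2 fold change 1.89, adjusted p = 0.0066), psmb6 (1.67, adjusted p = 0.000392), psma6b (1.53, adjusted p = 0.0029) and psma1 (1.07, adjusted p = 0.028), and 1 to 4 members were called when a library was left out. Without flt1-/- replicate 1, psme3ip1 was no longer called (adjusted p = 0.34), and without flt1-/- replicate 2, psmb6 (0.0502) and psma6b (0.16) were not. No antigen presentation gene passed with TMM scaling, whereas mhc1zba (-1.70, adjusted p = 0.000786), b2m (-3.16, adjusted p = 0.000237) and b2ml (-1.95, adjusted p = 8.09e-05) were lower with total counts. mhc1zba was at 29.0 and 17.7 CPM in erythrocyte-like cells of flt1-/- and 18.6 CPM in those of WT replicate 1 (0.81, adjusted p = 0.13). b2m was at 0.726 and 0.885 CPM in flt1-/- and 3.10 CPM in WT replicate 1 (-0.74, adjusted p = 0.53). It passed the filter on low counts through the endothelial-like sums, so its lower direction was tied to the filter. The p-value of b2m with total counts is therefore no independent support for that direction. No UMI of psma6l, cd74b or tapbp.1 was counted in erythrocyte-like cells of these libraries. All 5 loading partners tested were lower with either scaling, among them pdia3 (-3.31) and calr (-2.87).

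Epithelial-like cells were likewise compared with endothelial-like cells of the same 4 libraries. Of 23 members tested, 8 were higher and 2 lower with TMM scaling (25.2% and 26.6% of the 9710 genes tested, 51.9% in either direction), and the share of members called is near that of all genes. With total counts 2 were higher and 3 lower, against 19.8% and 34.3% of all genes. The members higher with both scalings were psme3, at 68.4 ± 3.23 CPM in epithelial-like and 39.5 ± 3.97 CPM in endothelial-like cells (SD, n = 4 each; log2 fold change 1.00, edgeR adjusted p = 0.000319), and psma6a, at 101 ± 18.8 CPM in epithelial-like and 60.5 ± 8.77 CPM in endothelial-like cells (SD, n = 4 each; 0.93, adjusted p = 0.000496).

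The largest log2 fold change of a member between epithelial-like and endothelial-like cells was in a class I chain, mhc1zea. This gene passed the filter on low counts through the endothelial-like sums, so its lower direction was tied to the filter. Its epithelial-like values rest on few UMIs. mhc1zea was at 1.13 and 1.28 CPM in epithelial-like cells of flt1-/- and at 3.23 CPM and 0 in those of WT, against 6.5 and 14.4 CPM and 15.2 and 13 CPM in endothelial-like cells of flt1-/- and WT. The groups did not overlap (log2 fold change -2.70 ± 0.45 (SE), edgeR adjusted p = 0.000323), while mhc1zba was at 58.6 ± 10.3 CPM in epithelial-like and 66.6 ± 14.9 CPM in endothelial-like cells (SD, n = 4 each; 0.05, adjusted p = 0.82). b2ml was lower, at 71.8 to 96.0 CPM in epithelial-like and 148 to 159 CPM in endothelial-like cells (-0.69, adjusted p = 0.0036). b2m was at 17.6 and 16.7 CPM in epithelial-like cells of flt1-/- and 35.6 and 13.6 CPM in those of WT, against 10.9 to 13.7 CPM in endothelial-like cells (0.88, adjusted p = 0.013). It was not called without WT replicate 1 (0.69, adjusted p = 0.066) or with total counts (0.65, adjusted p = 0.063). The count of members higher was 3 without WT replicate 1 and 5 without WT replicate 2. psme1 had 2.44 CPM or less in epithelial-like cells of every library. The flt1-/- libraries gave 453 and 169 epithelial-like cells and the WT libraries 51 and 44, and the clusters within the class took different shares in flt1-/- and WT.

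The genotypes were compared within endothelial-like, epithelial-like and white blood-like cells, with 2 flt1-/- and 2 WT libraries. They were not compared in erythrocyte-like cells, of which WT replicate 2 held under 10. No member passed the edgeR test in any class compared. In endothelial-like cells 0 of 26 members tested passed, as did 0 of all 10023 genes (440 genes and 1 member at an unadjusted p under 0.05; DESeq2 called 6 genes, no member among them). The summed constitutive core was at 2758 and 2696 CPM in flt1-/- endothelial-like cells, against 2177 and 2716 CPM in those of WT, and the median log2 fold change over the 26 members was 0.03. b2ml was at 159 and 154 CPM in flt1-/- and 148 and 153 CPM in WT (-0.02, adjusted p = 0.997). psmb10, mhc1laa, mhc1zea, mhc1zba and b2m had log2 fold changes of -0.82, -1.31, -0.52, -0.21 and -0.08, with edgeR adjusted p of 0.996 each. In epithelial-like cells 0 of 21 members passed (0.0129% of 7750 genes did). An unadjusted p under 0.05 was found for 1 member and 827 genes, and DESeq2 called 39 genes, no member among them. b2m was at 17.6 and 16.7 CPM in flt1-/- and 35.6 and 13.6 CPM in WT there (-0.52, adjusted p = 0.74).

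In white blood-like cells 0 of 37 members passed, and 6 of 12248 genes did (0.0490%, all of them higher in flt1-/-). At an unadjusted p under 0.05 there were 4 of the 37 members, against 868 of the 12248 genes. psmb8a was at 14.2 and 7.93 CPM in flt1-/- and at 1.18 and 2.06 CPM in WT (233 and 96 UMIs against 10 and 32). Both flt1-/- libraries lay well above both WT libraries (log2 fold change 2.59 ± 0.45 (SE), edgeR adjusted p = 0.29). psmb12 was at 4.50 and 2.39 CPM in flt1-/- and 0.474 and 0.900 CPM in WT (2.13 ± 0.55 (SE), adjusted p = 0.47). tapbp.1 was at 42.9 and 32.5 CPM in flt1-/- and 15.8 and 21.3 CPM in WT (0.89 ± 0.24 (SE), adjusted p = 0.49), and mhc1zca, a Z lineage class I chain, at 0.426 and 1.24 CPM in flt1-/- and 1.54 and 3.66 CPM in WT (-1.84 ± 0.68 (SE), adjusted p = 0.66). The other antigen presentation members, namely psmb10, psme1, psme2, b2m, b2ml, tap1, cd74b, cd74a, mhc1zaa, mhc1zba, mhc1zea, mhc1laa and mhc1uba, had log2 fold changes between -0.83 (cd74a) and 0.52 (mhc1uba), with edgeR adjusted p of 0.81 or more.

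The call for psmb8a depended on the method. DESeq2 called it higher in flt1-/- (log2 fold change 2.60, adjusted p = 0.000891), as 1 member of 37, against 0.425% of all genes higher and 0.367% lower. Without the filter on low counts edgeR called 4 of 51 members higher, against 1.07% of all genes higher and 0.999% lower: psmb8a (adjusted p = 1.98e-07), psmb12 (0.0091), tapbp.1 (0.033) and psmb13a (0.034). psmb13a had 14 and 6 UMIs in flt1-/- and 0 and 0 in WT. The log2 fold change of psmb8a was between 2.12 and 3.03 when any 1 library was left out. Such a fit leaves an arm of 1 library, so the range says nothing about stability. In lymphoid-like cluster 0 alone the log2 fold change was 2.19. In that cluster psmb8a was detected in 24.1% and 15.8% of cells in flt1-/-, against 2.88% and 7.38% in WT, and in progenitor-like cluster 5 in 31.5% and 25.0% in flt1-/-, against 3.57% and 3.23% in WT.

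**Figure D4:**
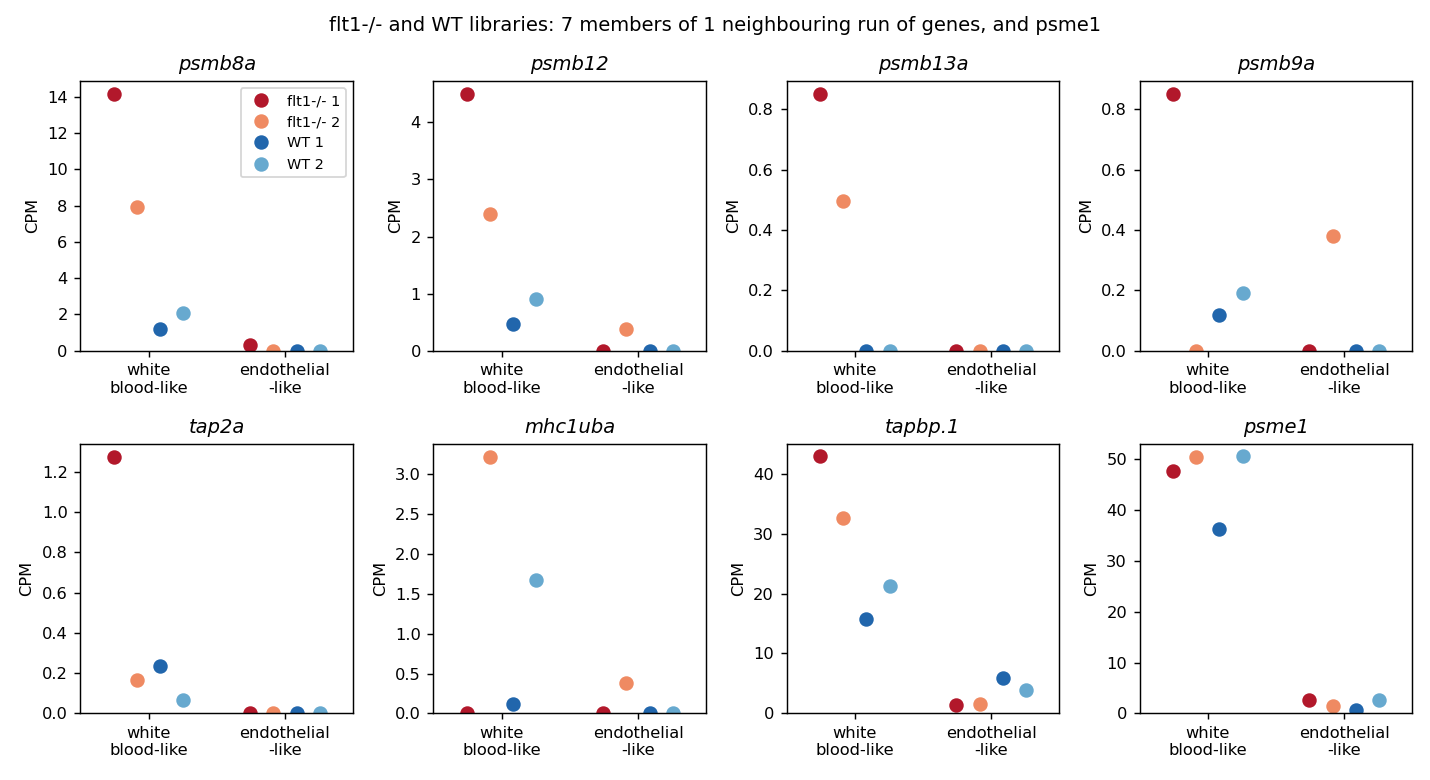
CPM (linear axes from 0) of psmb8a, psmb12, psmb13a, psmb9a, tap2a, mhc1uba, tapbp.1 and, for comparison, psme1 in white blood-like and endothelial-like cells, 1 point per library. In white blood-like cells psmb8a, psmb12, psmb13a and tapbp.1 are higher in both flt1-/- libraries than in both WT libraries, psmb9a and tap2a are high in flt1-/- replicate 1 only, and mhc1uba is high in flt1-/- replicate 2 and WT replicate 2.

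Several of these genes lie close together. In the GRCz12tu assembly of RefSeq, in which 54 of the 59 members were found by name, tapbp.1, mhc1uka, mhc1uba, psmb13a, psmb8a, psmb12, psmb9a and tap2a form 1 run of 8 neighbouring members. Of the 4 members with an unadjusted p under 0.05, psmb8a, psmb12 and tapbp.1 are in the run, and mhc1zca lies on another chromosome. Levels in the run differed between single libraries as well as between genotypes. mhc1uba had 0 and 39 UMIs in white blood-like cells of flt1-/- and 1 and 26 in those of WT, so that it was nearly missing in replicate 1 of each genotype. tap2a had 21 and 2 UMIs in flt1-/- and 2 and 1 in WT, and psmb9a 14 and 0 in flt1-/- and 1 and 3 in WT. mhc2a, which was not found by name in the GRCz12tu assembly and so has no known place relative to the run, had 20 and 0 UMIs in flt1-/- and 0 and 4 in WT. UMIs were counted against 1 reference sequence of this polymorphic region. Which haplotypes the embryos of each library carried was not tested, and with 2 libraries per genotype a difference between libraries and one between genotypes cannot be told apart.

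The genotype difference of tapbp.1 was positive in white blood-like and negative in endothelial-like cells, and it passed the edgeR test in neither. In endothelial-like cells it was at 1.37 and 1.52 CPM in flt1-/- and 5.96 and 3.94 CPM in WT (log2 fold change -1.77 ± 0.63 (SE), edgeR adjusted p = 0.996). The flt1-/- values lie below both WT values there, but tapbp.1 passed the filter on low counts through the WT libraries. Its negative direction in endothelial-like cells was therefore tied to the filter. The makeup of the class differed too: cluster 1 held 55.8% and 63.8% of endothelial-like cells in flt1-/- and 50.0% and 44.7% in WT, and endocardial-like cluster 4 held 30.2% and 21.1% in flt1-/- and 39.6% and 34.6% in WT. Its part in the tapbp.1 values was not tested. The test of the difference between the genotype effect in white blood-like and that in endothelial-like cells gave 2.63 ± 0.65 (SE), which did not pass after adjustment over 13093 genes (edgeR adjusted p = 0.74). None of the 33 members tested passed this test, 1 had an unadjusted p under 0.05, and 0 of all genes passed (397 at an unadjusted p under 0.05; DESeq2 was not run on it). In endothelial-like cells tapbp.1 rested on few UMIs, and the pan-leukocyte markers summed to 353 and 283 CPM in flt1-/- and 264 and 213 CPM in WT there.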

How the data were processed

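GFP+ cells of 2 flt1-/- and 2 WT libraries were analysed. The deposited values are whole UMI counts per gene and called cell, which the authors made with Cell Ranger 6.1.1 on GRCz11, per the submitters' processing notes; the sources name different chemistry versions. Cells with over 200 and under 4500 genes and under 5% mitochondrial UMIs were kept. Seurat 5.3.0 (R 4.3.3) normalized counts (scale factor 10000), chose 2000 variable genes, of which 1992 were left once members and pathway lists were removed, and clustered all libraries together without integration (20 principal components, resolution 0.5). No doublet caller was run. A cluster was named "X-like" when at least 3 markers were 2-fold higher than elsewhere in at least 10% of its cells and its share of markers led the next class by 0.15, and stayed unnamed at under 1/3 of the median depth of every library; the thresholds were set after clusters were seen. No cluster was macrophage-like, so the comparison planned for it was not run.

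UMIs were summed per library and class with at least 10 cells and tested with edgeR 4.0.16 (TMM, filterByExpr, two-sided quasi-likelihood F-test). Standard errors are the log2 fold change over the square root of F. Class comparisons and the test of the difference between genotype effects had library as a block; genotype comparisons within a class had genotype alone. Sums held 589955 to 16450853 UMIs. Confidence intervals are exact binomial at a level of 0.95. DESeq2 1.42.0, other size factors, no filter on low counts, total counts, other cell filters and clusterings, and each library left out were tried as alternatives. Only the fits of white blood-like against endothelial-like cells and of genotype in endothelial-like cells were tried on simulated data, and their recovery is not given here. Named are all antigen presentation members that passed the filter in a comparison, and up to 3 per direction of the other members called; any others named were chosen after their values were seen. Members and lists were chosen with earlier results of these data known. Coordinates and sequences are not given, since the gene table used for neighbours is of another assembly.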

Additional observations from a re-analysis of the deposited data

Results flagged for a closer look

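In endothelial-like cells, WT replicate 1 lay far below the other 3 libraries for the core proteasome (Dixon's test over 4 libraries, 95% critical value). The constitutive core summed to 2177 CPM there, against 2758 and 2696 CPM in flt1-/- and 2716 CPM in WT replicate 2. All members together were at 2559 CPM, the constitutive beta subunits at 1254 CPM, and the alpha subunits at 925 CPM with psma6l and 923 CPM without it. These 5 sums share most of their genes and are nearly the same observation. Of 42 groups of 4 libraries examined, 5 were marked, and chance marks about 1 in 20. In white blood-like cells the core of WT replicate 1 was at 3001 CPM, within the range of the other libraries (2749 to 3238 CPM).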

How the results depend on the processing

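The differences between white blood-like and endothelial-like cells held best: 23 to 25 members were higher and 0 lower when any 1 library was left out. Total-count scaling, chosen after seeing the data, gave 16 higher and 3 lower. Cluster 0 against cluster 1 alone, also chosen after seeing the data, gave 1 lower. b2ml turned to -0.13 with total counts.

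For erythrocyte-like cells, DESeq2 gave 2 members higher, RLE size factors 2 lower, no filter on low counts 2 lower, and total counts 0 higher and 18 lower. Leaving out 1 library gave 1 to 4 higher. With total counts the log2 fold changes of mhc1zba (-1.70), b2ml (-1.95), psme3ip1 (-0.63), psmb6 (-0.84) and psma6b (-0.98) changed sign. For epithelial-like cells, DESeq2 and no filter each gave 5 higher and total counts 2, and leaving out 1 library gave 3 to 6 higher and 2 lower.

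Between genotypes in white blood-like cells, DESeq2 gave 1 member higher in flt1-/- (psmb8a) and no filter on low counts 4. The cause of these changes was not tested, except that total counts shift all genes. With the replicate number as a block, psmb8a was called (log2 fold change 2.49, edgeR adjusted p = 0.021), 1 member in all, against 0.980% of all genes higher and 0.988% lower. The block changed no other call of a member between genotypes. Same-numbered libraries deviated together (r = 0.43, 0.47 and 0.25 in endothelial-like, white blood-like and epithelial-like cells), but with 2 pairs and no shared batch in the labels they were not taken as paired. Without a block, the class comparisons gave 25, 5 and 7 members higher. Between genotypes, leaving out 1 library leaves an arm of 1, assumed to vary like the other, so these fits say nothing about stability.

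Of 164 counts under an alternative, 146 stayed within 1.5 times the value reported, and of 742 fold changes of named genes 713 kept their call. A sign that changed where neither fit passed was not counted as a change. WT epithelial-like and erythrocyte-like sums were the smallest and limit those comparisons.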

Other observations

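Of the 27 genes of the 19S regulatory particle, 3 were higher and 0 lower in erythrocyte-like than in endothelial-like cells with TMM scaling. With total counts 0 were higher and 25 lower. Of all genes tested there, 18.0% were higher and 33.2% lower with TMM scaling, and 3.46% and 84.9% with total counts. In epithelial-like against endothelial-like cells, 2 were higher and 0 lower with TMM scaling, and 1 higher and 3 lower with total counts. Among 12 interferon and class I regulators tested in epithelial-like cells, 1 was higher and 7 lower, and 1 higher and 8 lower with total counts. Of all genes tested between these 2 classes, 25.2% were higher and 26.6% lower with TMM scaling, and 19.8% and 34.3% with total counts.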
